A study of Mus musculus with 6 samples.

Results

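The BCL2 family is described here through 9 genes: the pro-survival members Bcl2, Mcl1, Bcl2l1 (which encodes BCL-XL) and Bcl2l2 (BCL-W), the BH3-only death genes Bcl2l11 (BIM), Bmf, Bid and Bad, and the effector Bak1 (BAK). They were chosen by symbol, all 9 were found among the 22099 genes of the expression table, and all 9 passed the filter of at least 1 RPKM in at least 2 libraries that left 11345 genes for testing. RPKM is the number of reads scaled to the length of the transcript and the total reads of the library, so levels of different genes can be set side by side.

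The 6 libraries were made from polyadenylated RNA of C57BL/6 bone marrow cultures after 14 days in vitro. Every culture began at day 0 as whole marrow infected with a virus encoding BCR-ABL-p185, the fusion kinase of acute lymphoblastic leukaemia, together with a YFP marker, so the oncogene was shared by the controls and both mutants. The labels call the cells transformed pro-B leukaemia and divide them into wt, Ikaros_ZnF1-/- and Ikaros_ZnF4-/-, 2 genotypes of the transcription factor Ikaros named for its zinc fingers 1 and 4 and called ZnF1 mutant and ZnF4 mutant below. There were 2 libraries in each group, stated to be biological replicates. The labels do not name a promoter, a clone, the number of donor animals or a sort of transduced cells.

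The family controls the outer mitochondrial membrane. Pro-survival members hold BAK and BAX in check, BH3-only proteins bind and neutralise the pro-survival members or act on BAK and BAX directly, and freed BAK and BAX open the membrane and release cytochrome c, which starts the caspase cascade. In B cell precursors BIM, BCL2, BCL-XL and MCL1 are known to set survival. BCR-ABL signalling is known to support BCL-XL through STAT5, and also to restrain BIM. Transcript levels are reported here; the proteins, much of whose control lies in phosphorylation, cleavage and turnover, were not measured.

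The marker genes of the labelled cell type were present, and the summed level of 10 B lineage markers was 2270 to 3488 RPKM. Igll1 had the highest level of the list, and the sum hides differences between groups in single genes. Mean Rag1 was 7.05 RPKM in wt and 32.5 in each mutant. Mean Cd22 was 6.0 in wt, 2.85 in ZnF1 mutant and 14.7 in ZnF4 mutant cells. Other marrow cell types were represented unevenly. The summed level of 11 monocyte and macrophage markers was 322 and 379 RPKM in wt replicates 1 and 2, 932 and 1034 in ZnF1 mutant and 334 and 377 in ZnF4 mutant cells, and that of 10 stromal and endothelial markers was 69.9 and 78.1, 248 and 146, and 74.6 and 75.2. Granulocyte markers (8 genes) summed to 506 RPKM in wt replicate 1 and 1532 in ZnF1 mutant replicate 2, against 0.5 to 51.5 in the other 4 libraries. Among T and NK cell markers 4 of 8 (Cd3e, Cd3g, Cd8a and Ncr1) were listed at 0 in every library. Cd4 stood at 0.1 RPKM in both wt libraries, 1.7 and 2.0 in ZnF1 mutant and 0.0 in both ZnF4 mutant libraries. Cd3d, Klrb1c and Gzma reached at most 0.1, 0.4 and 0.8 RPKM. In RNA of mixed cells, fewer cells of a type and less RNA per cell cannot be told apart.

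The start regions of the 5 members on which the results turn are shown because they differ in base composition and in the sequence that Ikaros is known to bind, whose core is GGGAA. Each sequence is the 250 bases before the gene's most upstream RefSeq start site (RefSeq sequence, build GRCm38.p6), read 5′ to 3′ on the gene's strand, with GGGAA and its reverse complement TTCCC in capitals. Which start site these cells use was not measured.
Bcl2l1, chr2:152831729-152831978, minus strand: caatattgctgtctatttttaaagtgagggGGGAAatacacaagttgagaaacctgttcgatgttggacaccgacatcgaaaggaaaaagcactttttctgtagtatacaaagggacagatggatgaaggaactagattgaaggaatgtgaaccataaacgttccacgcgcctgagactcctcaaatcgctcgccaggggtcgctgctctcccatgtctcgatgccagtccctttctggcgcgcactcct
Bcl2l11, chr2:128125788-128126037, plus strand: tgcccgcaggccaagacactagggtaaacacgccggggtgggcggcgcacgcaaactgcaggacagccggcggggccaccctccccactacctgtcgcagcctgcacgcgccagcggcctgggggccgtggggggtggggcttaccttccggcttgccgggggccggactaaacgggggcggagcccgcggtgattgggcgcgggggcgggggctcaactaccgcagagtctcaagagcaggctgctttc
Bmf, chr2:118549687-118549936, minus strand: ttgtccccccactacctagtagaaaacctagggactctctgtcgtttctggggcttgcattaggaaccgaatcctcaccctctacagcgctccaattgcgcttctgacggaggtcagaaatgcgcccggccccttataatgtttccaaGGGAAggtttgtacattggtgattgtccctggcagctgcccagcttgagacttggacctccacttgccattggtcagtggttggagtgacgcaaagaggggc
Bcl2, chr1:106714291-106714540, minus strand: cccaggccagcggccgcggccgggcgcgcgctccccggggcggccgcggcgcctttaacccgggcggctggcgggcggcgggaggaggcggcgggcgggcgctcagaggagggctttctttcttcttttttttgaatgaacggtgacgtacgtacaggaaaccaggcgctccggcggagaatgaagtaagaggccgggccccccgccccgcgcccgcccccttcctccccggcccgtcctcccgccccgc
Bid, chr6:120916825-120917074, minus strand: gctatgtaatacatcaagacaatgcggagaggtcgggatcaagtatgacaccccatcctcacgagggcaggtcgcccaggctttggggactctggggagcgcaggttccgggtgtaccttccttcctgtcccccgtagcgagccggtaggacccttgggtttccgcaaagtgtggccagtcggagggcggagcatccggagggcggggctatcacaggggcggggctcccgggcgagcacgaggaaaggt
These windows held the core once in Bcl2l1, once in Bmf and not in Bcl2l11, Bcl2 or Bid. The most upstream windows of the members not shown held it 4 times for Mcl1, 3 for Bak1, 3 for Bad and 2 for Bcl2l2. The count depended on the start site taken. Further RefSeq windows held it 2 and 0 times for Bcl2l1, 0 and 3 for Bmf, 1 for Bad and 0 for Bcl2l11. All 9 members had a RefSeq window, and 6 of the 9 most upstream windows held the core on either strand, against 56.2% of the 32851 windows of the same length in the table. The palindromic STAT motif TTCNNNGAA, whose free bases can make it overlap GGGAA or TTCCC, was in none of the members' windows and in 7.02% of all windows. A match is a description of letters, and no binding was measured. The GC content was 74.8% for Bcl2, 72.0% for Bcl2l11 and 63.6% for Bid, against 54.0% for Bmf and 47.6% for Bcl2l1.

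In wt cells the most abundant member was Bak1, one of the pair of membrane-opening effectors, at 80.8 ± 32.9 RPKM (SD, n = 2), followed by Mcl1, a short-lived pro-survival protein, at 62.8 ± 2.4. The ranges of these 2 genes overlapped. Bid, at 38.2 ± 1.2, Bcl2l1, at 37.0 ± 8.41, and Bcl2l11, at 32.5 ± 6.29 RPKM, came next, with overlapping ranges between neighbours in this order. Bcl2 followed at 14.8 ± 1.63 and Bad at 11.5 ± 4.81, again overlapping, while Bcl2l2 at 6.8 ± 0.849 and Bmf at 2.25 ± 0.354 stood apart from their neighbours. In the ZnF1 mutant Bcl2l1 had the highest mean level, at 82.9 ± 8.2 RPKM, with a range that overlapped those of Bak1 (77.8 ± 28.1) and Mcl1 (77.7 ± 4.38). Bcl2 stood in the eighth place of 9 in the ZnF4 mutant, at 4.8 ± 0.99 RPKM, below Bcl2l2 at 6.4 ± 0.141 and above Bmf. The place of Bcl2 depends on summing its 2 transcript rows: by the row with the higher mean alone it stood at 7.8 RPKM in wt, below Bad, and at 2.35 in the ZnF4 mutant, equal to Bmf at 2.35.

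**Figure D1:**
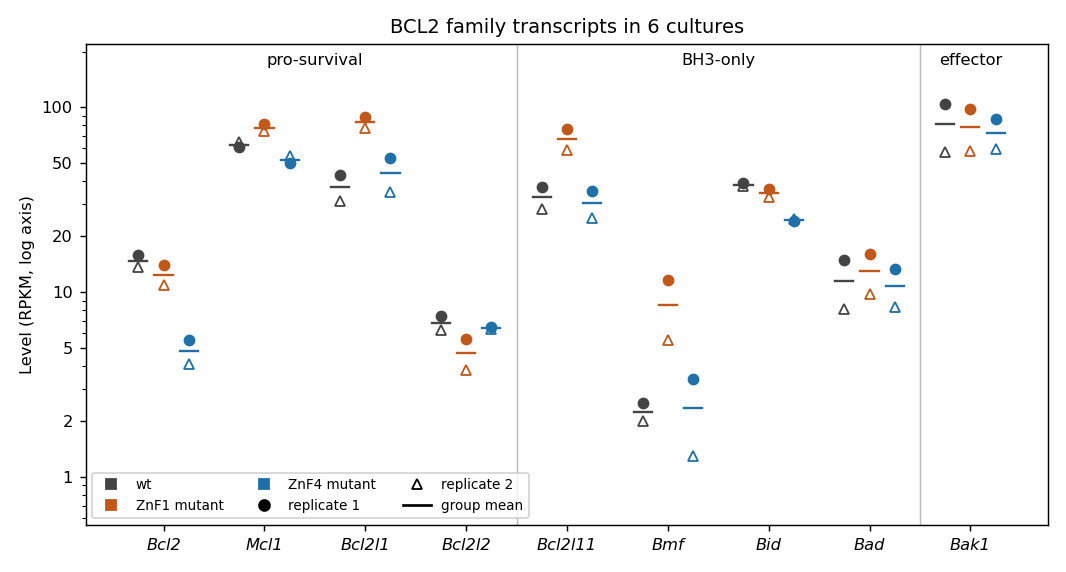
Level of each BCL2 family member in RPKM (log axis) in every library, by group; filled circles are replicate 1, open triangles replicate 2 and short lines the group means (n = 2). The ZnF4 mutant libraries of Bcl2 (5.5 and 4.1) lie below all others, and the ZnF1 mutant libraries of Bcl2l1, Bcl2l11 and Bmf lie above all others.

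Replicate 2 was lower than replicate 1 for most members in every group. This held in all 3 groups for 7 of the 9 members, all but Mcl1 and Bid, against 44.3% of all genes tested. The RPKM summed over all genes was also lower in replicate 2 of every group. It was 336949 and 287007 in wt replicates 1 and 2, 345766 and 291226 in ZnF1 mutant and 333249 and 300706 in ZnF4 mutant cells. The ratio of replicate 2 to replicate 1 was 0.553, 0.593 and 0.691 for Bak1 in wt, ZnF1 mutant and ZnF4 mutant and 0.544, 0.609 and 0.624 for Bad. Same-numbered libraries deviated together, and fold changes are given from limma over all genes without and with a block for the replicate number. The fold change is the same in both fits and only its standard error and p-value differ.

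The first comparison sets the ZnF1 mutant against wt. Bcl2l1, Bcl2l11 and Bmf rose in the ZnF1 mutant when the replicate number was a block, and no member passed without it. Both a survival gene (BCL-XL) and a pair of death genes (BIM and BMF, BH3-only proteins that bind pro-survival members) were thus among the called members, and 0 fell. The percentage of all genes tested that were called higher was 10.4% with the block (1175 genes) and 0.0% without it (0 genes), and 1281 genes had an unadjusted limma p under 0.05, among them 3 members. Calls in either direction with the block came to 13.2% of genes, 2.88% being lower.

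Bcl2l1 stood at 88.7 and 77.1 RPKM in ZnF1 mutant replicates 1 and 2, against 43.0 and 31.1 in wt. Both mutant libraries were high and the groups did not overlap. The difference was 1.16 on the log2(RPKM + 1) scale (SE 0.27, limma adjusted p = 0.16, or SE 0.11 and adjusted p = 0.0076 with the replicate block), and within pairs the level was 2.06 and 2.48 times that of wt. The table lists 1 transcript row for this gene, so its known splice forms could not be told apart.

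Bcl2l11, whose product BIM is a main killer of lymphoid cells deprived of growth signals, stood at 76.4 and 58.7 RPKM in ZnF1 mutant cells against 37.0 and 28.1 in wt. The groups did not overlap, and the ratio within pairs was nearly equal, 2.06 and 2.09. The log2 difference was 1.03 (SE 0.25, adjusted p = 0.18, or SE 0.07 and adjusted p = 0.0052 with the block). Of its 3 transcript rows, NM_009754 held 86.2% to 88.7% of the summed RPKM in every library, NM_207680 held 8.0% to 9.5% and NM_207681 held 3.3% to 4.3%. The shares of the rows were thus alike in the 3 groups while the sum differed. How reads shared by these rows were counted is not stated. The shares therefore cannot show which transcripts were used, and the sum may count shared reads more than once.

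Bmf, a BH3-only gene whose protein is tied to the cytoskeleton until released, had low levels, at 11.6 and 5.5 RPKM in the ZnF1 mutant against 2.5 and 2.0 in wt. ZnF1 mutant replicate 1 was the highest library, and the groups did not overlap. The log2 difference was 1.48 (SE 0.44, adjusted p = 0.25, or SE 0.2 and adjusted p = 0.016 with the block), and it was unequal in the pairs, at 1.85 and 1.12.

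These 3 calls with the block rested on few libraries. Leaving out wt replicate 1, wt replicate 2 or ZnF1 mutant replicate 1 left 0 called members, leaving out ZnF1 mutant replicate 2 left 2, without Bmf, and leaving out either ZnF4 mutant library left all 3. The log2 differences in those fits were 0.99 to 1.32 for Bcl2l1, 1.01 to 1.06 for Bcl2l11 and 1.12 to 1.84 for Bmf. The higher levels stood beside higher monocyte and stromal transcripts in the same libraries: 10 of 10 tested monocyte and macrophage markers were higher in the ZnF1 mutant, with a median log2 fold change of 1.36, and 9 of 9 stromal and endothelial markers, with a median of 1.21. Of 6 tested granulocyte markers 5 were higher, with a median of 0.67, while their summed level was 506 against 1.8 RPKM in wt and mutant of the replicate 1 pair and 0.5 against 1532 in the replicate 2 pair. Of 10 tested B lineage markers 8 were higher, with a median of 0.14. The part of these cell types in the results was not tested.

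Bmf had the widest range of group means of all members, 1.51 on the log2(RPKM + 1) scale. The 3 tested genes nearest to its pattern over the 6 libraries, by Euclidean distance of centred log2 values, were Dmpk (distance 0.21), a muscle kinase gene, Ptrf (0.34), a caveolar coat gene, and Pcolce (0.359), a procollagen processing gene. Dmpk stood at 4.5 and 3.0 RPKM in wt, 16.2 and 7.5 in ZnF1 mutant and 5.0 and 2.2 in ZnF4 mutant cells. In the same order, Ptrf stood at 3.1 and 2.5, 13.1 and 6.0, and 3.5 and 2.2 RPKM. Pcolce stood at 3.2 and 2.2, 12.3 and 6.5, and 2.9 and 1.7 RPKM. The levels of Bmf were 2.5 and 2.0, 11.6 and 5.5, and 3.4 and 1.3 RPKM.

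Mcl1 stood at 80.8 and 74.6 RPKM in ZnF1 mutant cells against 61.1 and 64.5 in wt, without overlap, but its log2 difference of 0.3 did not pass (adjusted p = 0.62, or 0.088 with the block). Bcl2l2 stood at 5.6 and 3.8 against 7.4 and 6.2, a difference of -0.47 (adjusted p = 0.54, or 0.07 with the block). For Bcl2 the difference was -0.23, for Bid -0.15, for Bad 0.18 and for Bak1 -0.04, with adjusted p of 1.0 without the block and 0.13 to 0.81 with it. The groups did not overlap for 6 of the 9 members, 4 higher and 2 lower, against 31.1% of all genes tested, 18.3% higher and 12.7% lower.

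The second comparison sets the ZnF4 mutant against wt. Here Bcl2, the founding survival gene of the family, fell, and Bid, a BH3-only gene that links death receptors to mitochondria through cleavage by caspase 8, fell with the replicate block. The members that were higher in the ZnF1 mutant stood near wt, and 0 members rose. Among all genes tested 1.3% were called lower and 1.43% higher without the block, 2.72% in all, and with it 7.92% and 8.02%, or 15.9% in all.

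Bcl2 stood at 5.5 and 4.1 RPKM in ZnF4 mutant replicates 1 and 2, against 15.9 and 13.6 in wt and 14.0 and 10.9 in the ZnF1 mutant. Both ZnF4 mutant libraries were below every other library. The gene fell by 1.45 against wt on the log2(RPKM + 1) scale (SE 0.21, limma adjusted p = 0.037, or SE 0.08 and adjusted p = 0.0012 with the block), and within pairs the level was 0.346 and 0.301 times that of wt. Leaving out any 1 of the 6 libraries ended the call without the block (adjusted p = 0.081 to 0.22), and so did a fit with no filter on low values (0.063) or of the 4 libraries compared (0.081), with log2 differences of -1.62 to -1.27 over the single libraries left out. With the block the call held in each of the 6 such fits (adjusted p = 0.01 to 0.024). A fit that leaves out a library has less replication to estimate the spread from.

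The table lists Bcl2 as 2 transcript rows, NM_009741 with 7208 bases and NM_177410 with 2519. Their RPKM were close, at 7.9 and 8.0 in wt replicate 1, 7.7 and 5.9 in wt replicate 2, 2.5 and 3.0 in ZnF4 mutant replicate 1 and 2.2 and 1.9 in ZnF4 mutant replicate 2. The sources used here do not say how reads shared by both rows were counted, so the summed level may count shared reads more than once. By the row with the higher mean alone, Bcl2 stood at 7.8 RPKM in wt, 6.5 in ZnF1 mutant and 2.35 in ZnF4 mutant cells, and the difference of the ZnF4 mutant from wt was -1.39 (adjusted p = 0.021, with an adjusted p of 0.02 to 0.52 over the other alternatives without the block).

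Bid stood at 24.3 and 24.9 RPKM in the ZnF4 mutant, 39.1 and 37.4 in wt and 36.1 and 32.9 in the ZnF1 mutant. Its libraries differed little within a group, and the ZnF4 mutant did not overlap with either other group. The log2 difference from wt was -0.62 (SE 0.14, adjusted p = 0.12, or SE 0.08 and adjusted p = 0.0078 with the block). With the block its adjusted p was 0.059 to 0.11 without either wt or either ZnF4 mutant library, and the difference stayed at -0.68 to -0.55.

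The other 7 members did not pass in either fit. Mcl1 stood at 49.7 and 54.3 RPKM in the ZnF4 mutant against 61.1 and 64.5 in wt, a difference of -0.27 (adjusted p = 0.68, or 0.11 with the block). Bcl2l1 differed by 0.24 and Bcl2l11 by -0.11, with adjusted p of 1.0 (0.23 and 0.36 with the block). Bmf differed by 0.33 in the replicate 1 pair and by -0.38 in the replicate 2 pair. Of the marker lists, granulocyte markers had 0 of 6 tested higher in this comparison, with a median of -1.17 (log2). Their summed level was 5.9 RPKM in the ZnF4 mutant against 506 in wt in the replicate 1 pair. In the replicate 2 pair it was 51.5 against 0.5. Erythroid and megakaryocyte markers had 1 of 3 higher and a median of -0.86. Their sums were 23.2 against 52.2 RPKM in the replicate 1 pair and 31.0 against 19.3 in the replicate 2 pair. The direction of these sums thus turned between the pairs. Monocyte and stromal markers had medians of 0.06 and 0.01 and B lineage markers one of 0.08. Their part in the lower Bcl2 and Bid was not tested. For 3 of the 9 members, all lower, the groups did not overlap, against 31.7% of all genes tested, 13.8% lower and 17.8% higher.

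**Figure D2:**
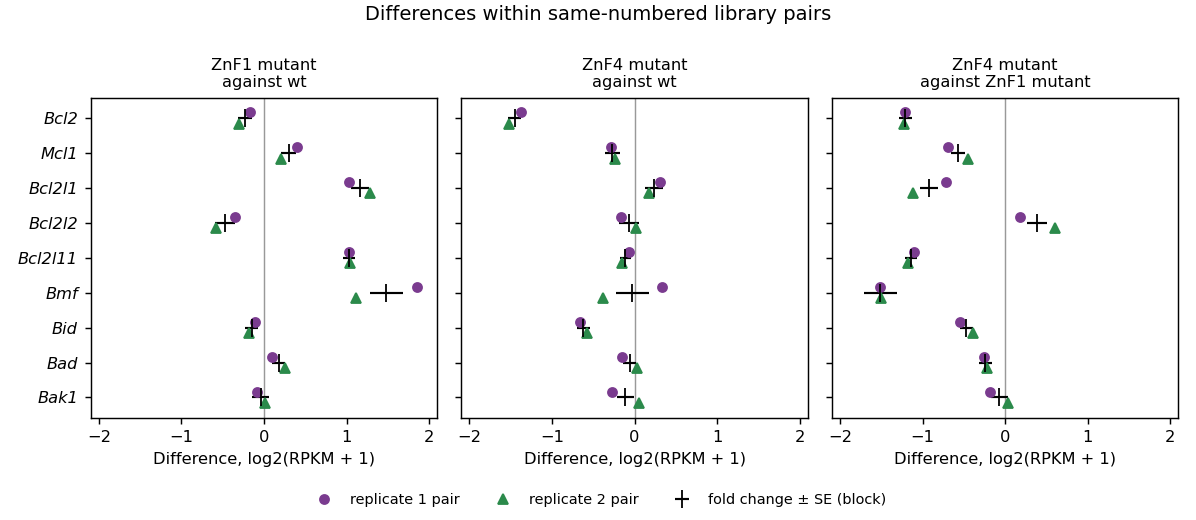
Difference of each member in log2(RPKM + 1) within the replicate 1 pair (circles) and the replicate 2 pair (triangles) of libraries for the 3 comparisons; vertical ticks with bars are the fold change ± SE of the fit with the replicate block. Bcl2l11 differed by 1.03 and 1.04 in the 2 pairs of ZnF1 mutant and wt, and Bcl2 by -1.38 and -1.52 in those of ZnF4 mutant and wt.

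The third comparison sets the mutants against each other and tests the difference between them. It shares its libraries with the first and second, so it is not independent of them. Bcl2 fell in the ZnF4 mutant relative to the ZnF1 mutant by 1.21 (SE 0.21, limma adjusted p = 0.041, or 0.0013 with the block), the only member called without the block. With the block Mcl1, Bcl2l1, Bcl2l11, Bmf and Bid were lower too, 6 of 9 in all, against 19.2% of all genes tested that were called lower and 15.9% called higher with the block (35.1% in all). Without the block 3.75% of genes were lower and 1.61% higher, 5.37% in all. The groups did not overlap for 7 members, 6 lower and 1 higher, against 43.5% of all genes, 21.8% lower and 21.7% higher.

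Bcl2l11 showed a difference of -1.14 (SE 0.25, adjusted p = 0.073, or 0.0012 with the block) and Bmf one of -1.51 (adjusted p = 0.14, or 0.0068). Bcl2l1 stood at 53.4 and 35.0 RPKM against 88.7 and 77.1, a difference of -0.92 (adjusted p = 0.14, or 0.005 with the block). Mcl1 differed by -0.57 and Bid by -0.47 (adjusted p = 0.1 and 0.15, or 0.0093 and 0.011). Bcl2l2 was the member with the opposite sign, at 0.39 (adjusted p = 0.41, or 0.058 with the block). The call of Bcl2 without the block ended when any 1 library was left out (adjusted p = 0.074 to 0.22). With the block, leaving out ZnF4 mutant replicate 1 or 2 left 4 and 3 called members, and leaving out any 1 of the other 4 libraries left 6. Those 6 were not always the same: without ZnF1 mutant replicate 1, Bmf was lost (adjusted p = 0.054) and Bcl2l2 was called higher (0.56, adjusted p = 0.048).

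**Figure D3:**
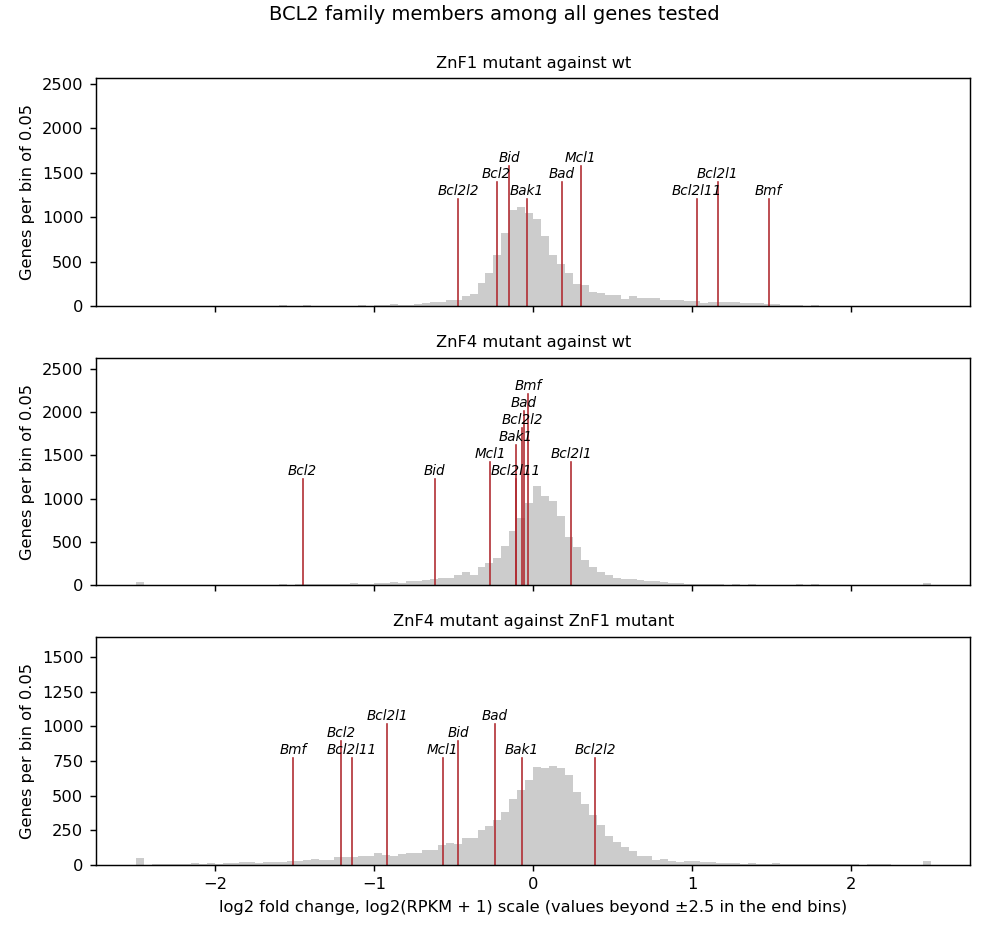
Histograms of the log2 fold change of all 11345 genes tested in each comparison (grey, bins of 0.05, values beyond 2.5 in the end bins), with red lines at the BCL2 family members. Bcl2l11, Bcl2l1 and Bmf lie at 1.03 to 1.48 for the ZnF1 mutant against wt, and Bcl2 at -1.45 for the ZnF4 mutant against wt.

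Summed by role, the pro-survival members reached 127 and 115 RPKM in wt, 189 and 166 in ZnF1 mutant and 115 and 99.7 in ZnF4 mutant cells. The BH3-only members summed to 93.5 and 75.6, 140 and 107, and 76.2 and 59.8 RPKM. Both sums were highest in the ZnF1 mutant, and their ratio (BH3-only over pro-survival) was 0.695 ± 0.0557 (SD, n = 2) in wt, 0.692 ± 0.07 in ZnF1 mutant and 0.631 ± 0.044 in ZnF4 mutant cells, with overlapping ranges. The effector Bak1 stood at 104.1 and 57.6, 97.6 and 57.9, and 86.2 and 59.6 RPKM, and its difference between groups was smaller than that between the replicates of each group.

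The make-up of the pro-survival sum differed. Bcl2 was 12.1% ± 0.492 (SD, n = 2) of it in wt, 6.98% ± 0.603 in ZnF1 mutant and 4.45% ± 0.471 in ZnF4 mutant cells. By the higher Bcl2 row alone these shares were 6.82% ± 0.294, 3.78% ± 0.0911 and 2.24% ± 0.0137, in the same order. Bcl2l1 was 30.4% ± 4.81, 46.6% ± 0.405 and 40.7% ± 7.98. The ratio of Bcl2l1 to Bcl2 was 2.7 and 2.29 in wt, 6.34 and 7.07 in ZnF1 mutant and 9.71 and 8.54 in ZnF4 mutant cells, so no group overlapped with another. By the higher Bcl2 row alone the ratios were 5.44 and 4.04, 12.7 and 12.8, and 21.4 and 15.9, again without overlap. Within the BH3-only sum Bcl2l11 was 38.4% ± 1.7 in wt, 54.7% ± 0.295 in ZnF1 mutant and 44.3% ± 2.75 in ZnF4 mutant cells. Its summed rows may count shared reads more than once, and its share by the highest row alone was not computed. These shares were not tested, since the members were chosen with results known.

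**Figure D4:**
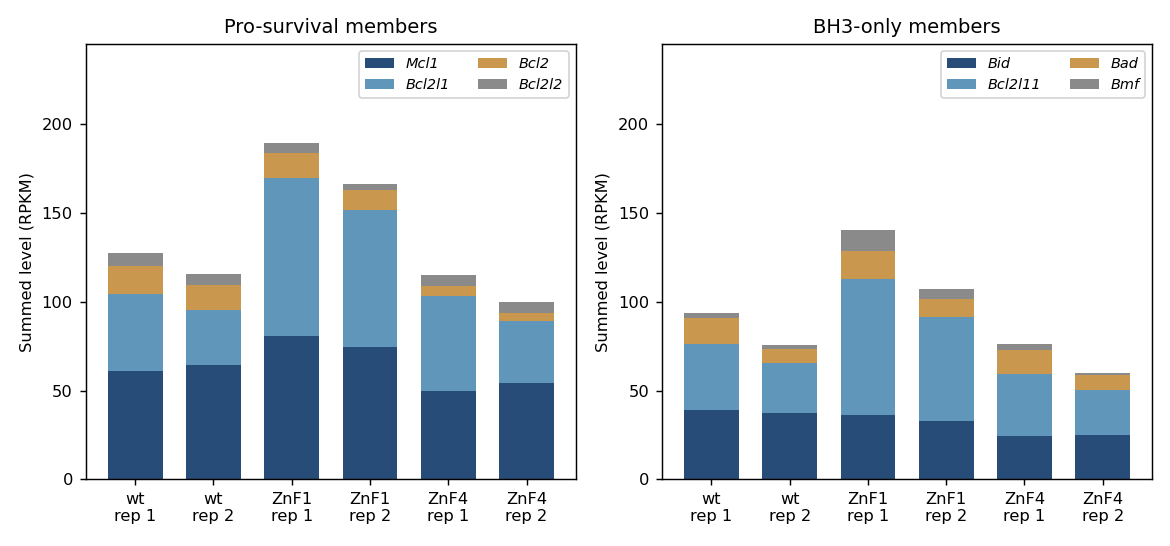
Summed RPKM of the pro-survival members (left) and the BH3-only members (right) in each library, stacked by gene. Both ZnF1 mutant bars are higher than all others, at 189 and 166 RPKM on the left and 140 and 107 on the right.

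Across the 6 libraries the log2 levels of Bcl2l11 correlated with those of Bmf at r = 0.974 and of Bcl2l1 at r = 0.959, Bcl2 with Bid at 0.978 and Bak1 with Bad at 0.961. These pairs are the highest of all pairs of members, and the lowest was Bcl2l1 with Bcl2l2 at r = -0.609. All these correlations are descriptions over 6 points that share their group means and the replicate difference.

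Of 17 other BCL2 family genes 8 passed the filter, and with the block 0 were higher and 1 lower in the ZnF1 mutant, and 1 higher and 1 lower in the ZnF4 mutant. Of all genes tested, 10.4% were called higher and 2.88% lower with the block in the ZnF1 mutant, and 8.02% and 7.92% in the ZnF4 mutant. The 8 genes had medians of 0.0 and 0.08 beside -0.01 and 0.04 for all genes tested (0.18 and -0.11 for the 9 members). Bax, the other membrane-opening effector, stood at 156.6 and 89.5 RPKM in wt, 173.8 and 88.9 in ZnF1 mutant and 152.2 and 83.7 in ZnF4 mutant cells, so that the replicates differed more than the groups. Bbc3 (PUMA), a BH3-only target of p53, stood at 8.7 and 2.4 RPKM in the ZnF4 mutant against 14.9 and 5.8 in wt, a difference of -0.86 (adjusted p = 0.92, or 0.024 with the block). Pmaip1 (NOXA), which binds MCL1, stood at 3.9 to 5.5 RPKM in the 6 libraries.

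Bok, a BAX-related gene, went opposite ways in the mutants. It stood at 31.7 and 16.4 RPKM in the ZnF4 mutant, 18.3 and 8.3 in wt and 12.0 and 5.8 in the ZnF1 mutant. The difference was 0.83 for the ZnF4 mutant and -0.51 for the ZnF1 mutant against wt (adjusted p = 0.8 and 1.0, with the block 0.0037 and 0.019), and 1.34 between the mutants (adjusted p = 0.26, or 0.0011 with the block). The libraries of each mutant overlapped with those of wt, and those of the mutants did not overlap with each other. Bcl2a1a, Bcl2a1c and Bcl2a1d, near-identical copies of a survival gene, were listed at 0 in all libraries, and Bcl2a1b at 0.1 to 0.3 RPKM, which leaves their level uncertain.

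Of 14 tested caspase and apoptosome genes, 1 rose and 1 fell in the ZnF1 mutant with the block, beside 10.4% and 2.88% of all genes, and 0 passed in the ZnF4 mutant, beside 15.9% of all genes in either direction. Casp9, the initiator caspase of the mitochondrial route, stood at 6.5 and 5.6 RPKM in ZnF1 mutant cells against 5.0 and 3.6 in wt (0.42, adjusted p = 0.65, or 0.043 with the block). Among 6 tested caspase inhibitors 1 was lower in ZnF1 mutant and 2 in ZnF4 mutant cells with the block, beside 2.88% and 7.92% of all genes. Birc3 (cIAP2), a ubiquitin ligase of TNF receptor signalling, stood at 8.6 and 8.4 RPKM in the ZnF4 mutant against 15.0 and 17.2 in wt (-0.85, adjusted p = 0.063, or 0.0045 with the block). Its relative Birc2 (cIAP1) was lower in both mutants, by -0.56 and -0.87 (adjusted p = 0.91 and 0.52, with the block 0.022 and 0.0051).

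Among 19 tested regulators of the family, 1 was higher in the ZnF1 mutant with the block, and 1 higher and 4 lower in the ZnF4 mutant, beside 10.4% of all genes higher in the ZnF1 mutant and 8.02% higher and 7.92% lower in the ZnF4 mutant. Pim1, a STAT5-induced kinase known to phosphorylate BAD, stood at 162.4 and 105.6 RPKM in wt, 233.4 and 171.8 in ZnF1 mutant and 70.7 and 47.9 in ZnF4 mutant cells. Its difference from wt was 0.61 in the ZnF1 mutant (adjusted p = 0.69, with the block 0.014) and -1.16 in the ZnF4 mutant (adjusted p = 0.2, or 0.0017), and it fell in the ZnF4 relative to the ZnF1 mutant by 1.77 in both fits (adjusted p = 0.045 and 0.00078). Stat5a and Stat5b stood at 7.4 and 5.8 and at 10.9 and 8.5 RPKM in the ZnF4 mutant against 14.8 and 9.3 and 15.4 and 12.0 in wt, differences of -0.76 and -0.46 (adjusted p = 0.39 and 0.53, with the block 0.0096 and 0.018). Dynll2, the dynein light chain that holds BMF, was higher in the ZnF4 mutant by 0.6 (50.3 and 41.9 against 35.1 and 25.6 RPKM, adjusted p = 0.42, or 0.0092 with the block). Foxo3, a known activator of Bcl2l11, stood at 12.8 and 8.0 RPKM in the ZnF4 mutant and 14.6 and 12.8 in the ZnF1 mutant against 17.8 and 12.5 in wt. Its difference from wt in the ZnF4 mutant, -0.52, was the fourth lower call with the block, just under the threshold (adjusted p = 0.67, or 0.0497 with the block).

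Between the mutants, with the block, 15.9% of all genes were higher and 19.2% lower in the ZnF4 mutant. Beside these shares, 2 of 8 other BCL2 family genes were higher and 1 lower, 3 of 14 caspase and apoptosome genes were higher and 0 lower, 1 of 6 caspase inhibitors was higher and 2 lower, and 3 of 19 regulators were higher and 4 lower. Birc3 and Pim1 passed without the block as well, Birc3 with a difference of -0.86 (limma adjusted p = 0.039, or 0.0029 with the block). Stat5a and Stat5b differed by -0.6 and -0.63 (adjusted p = 0.36 and 0.18, with the block 0.012 and 0.005) and Dynll2 by 0.66 (0.21, or 0.0047). Birc5 (survivin), an inhibitor-family protein of dividing cells, stood at 112.5 and 119.5 RPKM in the ZnF4 mutant against 84.9 and 93.4 in the ZnF1 mutant (0.38, adjusted p = 0.25, with the block 0.019).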

How the data were processed

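The authors' deposited table gives RPKM, to 1 decimal, for 26531 RefSeq transcripts in 6 libraries, per the file headers. TopHat, bedtools and mm9 are named without versions, per the submitters' processing notes; those notes do not say how shared reads and strand were handled, and spans of Bcl2l1 (Cox4i2), Bcl2l11 (Acoxl), Bak1 (Ggnbp1) and Bad (Gpr137) overlap another gene of the table. Transcript lengths, in bases, are the deposited column. Depth is unknown, since rounding hides the step of 1 read, so no counting interval is given.

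Rows were summed per symbol (22099 genes), leaving out 1 row that names no gene. The 11345 genes reaching 1 RPKM in 2 or more libraries entered a test with limma 3.58.1 (R 4.3.3, intensity trend) on log2(RPKM + 1), 3 group means in 1 fit, two-sided, Benjamini-Hochberg over all genes tested within each comparison, threshold 0.05; fold changes understate low genes. The scripts were tested on simulated data. Deviations of same-numbered libraries from group means correlated at 0.5, 0.754 and 0.715 across genes, over 0.1 in all 3 pairs of groups. The libraries were therefore taken as paired by replicate number, and the fit with that block is given beside the other. The labels do not say what same-numbered libraries share. The pairing was inferred from the same data that the block was then fitted to. Only spread between the 2 libraries of a group is measured.

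Named were all 9 members, Bax, Bbc3 and Pmaip1, list genes passing in either fit (the first 8 a comparison by p without the block, the rest by count) and the 3 genes nearest to the member of widest range; a few genes under this rule are not reported here, and the Bcl2a1 genes were named after their values were seen. Members and lists were chosen with earlier results of these data known.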

Additional observations from a re-analysis of the deposited data

How the results depend on the processing

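Alternatives were another pseudocount, filter, transcript row, scaling, set of libraries, trend setting and the replicate block; fits of the block together with another choice, and a fit without wt replicate 1 and ZnF1 mutant replicate 2, which had the most granulocyte transcripts, were added after seeing the data. With the replicate block 3, 2 and 6 members were called for ZnF1 mutant against wt, ZnF4 mutant against wt and ZnF4 against ZnF1 mutant, where 0, 1 and 1 were called without it, and 1502, 1809 and 3979 genes in all against 0, 309 and 609. With the block and the highest row or a pseudocount of 0.1 the members were again 3, 2 and 6, and with the block and upper quartile scaling 3, 2 and 7, Bcl2l2 being the added one (0.4, adjusted p = 0.043). With the block and 1 library left out they were 0 to 3, 1 to 2 and 3 to 6.

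Without the block, no filter on low values or only the 4 libraries compared gave 0 members for each comparison with the ZnF4 mutant, as did leaving out any 1 library (0 to 0) or the pair with most granulocyte transcripts (0). Upper quartile scaling gave 2 members between the mutants, adding Bcl2l11, and 1 gene in all for ZnF1 mutant against wt. Genes in all were 176 and 323 at 5 RPKM, 86 and 234 with the 4 libraries compared, 0 to 88 and 0 to 262 with 1 library left out, and 0 and 0 without the pair, for ZnF4 mutant against wt and against ZnF1 mutant. Leaving libraries out leaves less replication to estimate the spread from; for the other settings the cause was not tested.

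No called difference changed sign. Among differences that passed in neither fit, the sign turned for Bak1 (-0.46 to 0.38, -0.53 to 0.31 and -0.44 to 0.3 with 1 library left out, in the order of comparisons above) and Bad (-0.23 to 0.58, -0.46 to 0.34 and -0.57 to 0.09), and for ZnF4 mutant against wt in Bcl2l1 (-0.06 to 0.53), Bcl2l2 (-0.18 to 0.04), Bcl2l11 (-0.34 to 0.12) and Bmf (-0.49 to 0.44, and 0.01 with a pseudocount of 5). Without the pair with most granulocyte transcripts it turned for Bcl2 (0.04) and Bak1 (0.75) in ZnF1 mutant against wt, and for Bcl2l2 (0.04), Bcl2l11 (0.08), Bmf (0.08), Bak1 (0.31) and Bad (0.34) in ZnF4 mutant against wt. By the highest row Bcl2 stood at 7.8, 6.5 and 2.35 RPKM in wt, ZnF1 mutant and ZnF4 mutant. The depth is unknown, so counting error at low levels could not be given.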
